A study of Mus musculus with 12 samples.

Results

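Described here are 10 mouse genes of T cells and cytotoxic lymphocytes, measured by RNA-seq in the livers of 12 male C57BL/6NTac mice. The genes were taken by symbol and are 10 of the 55359 genes in the deposited table of raw counts. They are Cd3d, Cd3e and Cd3g (CD3 chains of the T cell receptor), Cd4, Cd8a and Cd8b1 (coreceptors), Gzmb and Gzmk (granzymes), Pdcd1 (the checkpoint receptor PD-1) and Cxcr6 (a chemokine receptor). Each was matched to 1 Ensembl gene. The 3 groups held 4 mice each, named below by group and number. Chow-fed lean mice and the HFD control group, kept on a high-fat diet (HFD), were both given Control-mRNA. The NM-FGF19 group was kept on the high-fat diet as well and was given NM-FGF19 mRNA, which encodes a non-mitogenic form of the gut hormone FGF19. Lean mice included, all animals were injected weekly with mRNA in lipid nanoparticles for 6 weeks and killed 24 h after the last dose, so the particles and the injections are shared by all 3 groups. The labels give an age of 24 weeks and 28 weeks of feeding, which cannot both be counted from birth, and the age is printed as given. The count columns of the HFD control mice carry the name mOX40L, the mouse OX40 ligand Tnfsf4, whose receptor is a T cell co-stimulator, so that gene and its receptor are reported with the T cell genes below.

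T cells recognise peptides on MHC molecules through a receptor whose signal is carried by the CD3 chains. CD4 binds MHC class II and marks helper and regulatory T cells, while CD8, a pair of chains, binds MHC class I and marks cytotoxic T cells. Cytotoxic T cells and natural killer cells kill by releasing granzymes, and PD-1 and CXCR6 mark T cells that have met antigen repeatedly or that stay in the liver, where CXCR6 binds CXCL16 on the sinusoid wall. In fatty liver disease such CXCR6- and PD-1-positive CD8 T cells are known to accumulate. Cd4 and Cd8a are not limited to T cells in the mouse, since subsets of dendritic cells carry either chain. In bulk liver RNA, fewer cells of a type and less RNA per cell cannot be told apart.

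These genes lie near the lower limit of the data. Libraries held 23743415 to 33257260 counts, and levels are given in CPM, counts per 1000000 of the library total after trimmed-mean (TMM) scaling, so that 1 count was worth 0.0264 to 0.051 CPM. The 3 counts used as the limit that a count of 0 allows came to 0.0792 to 0.153 CPM. Counts of 1 to 20 were even in 70.5% of cases over all genes, so low counts largely came in pairs, and a limit or interval drawn from them covers counting error only and may stand for fewer fragments than counts. In a principal component analysis the livers most distant from their group's centre were lean 3 and HFD control 3, and lean 3 also had the lowest TMM factor (0.779). Of the 10 genes, 7 had enough counts to be tested with all genes, and Cd8b1, Gzmk and Pdcd1 did not. A gene can pass such a filter through the group where it is high, so the 7 are not a neutral sample of the 10.

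The 3 comparisons ask what the high-fat diet did, what NM-FGF19 did on that diet, and how far treated mice remained from lean mice. Between HFD control and lean mice, 0 of the 7 tested genes passed the threshold (edgeR's quasi-likelihood test, Benjamini-Hochberg adjusted p under 0.05 over all genes), while 8.33% of all 15274 tested genes did. Their log2 changes ran from −0.48 for Cd4 to 1.41 for Cd8a, with a median of 0.59 beside −0.02 for all genes. Between NM-FGF19 and HFD control mice, 0 of 7 passed against 0.432% of all genes (0.282% higher and 0.151% lower), and the 7 changes were all negative, from −0.08 to −0.98, with a median of −0.44 beside 0 for all genes. Between NM-FGF19 and lean mice, 0 of 7 passed against 1.49% of all genes (1.01% higher and 0.484% lower), with 4 changes above and 3 below 0 and a median of 0.15. None of the 7 reached an unadjusted p of 0.05 in any comparison: the count was 0 in each, and DESeq2 and limma voom also called 0 of 7. The 3 comparisons share samples pairwise, so they are not independent of each other. When all genes were kept, 1 of the 10 passed, Pdcd1 in HFD control against lean mice, where 3.69% of 29250 genes did. Without that filter 0.28% of genes passed between NM-FGF19 and HFD control mice and 0.954% between NM-FGF19 and lean mice, none of the 10 among them.

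**Figure D1:**
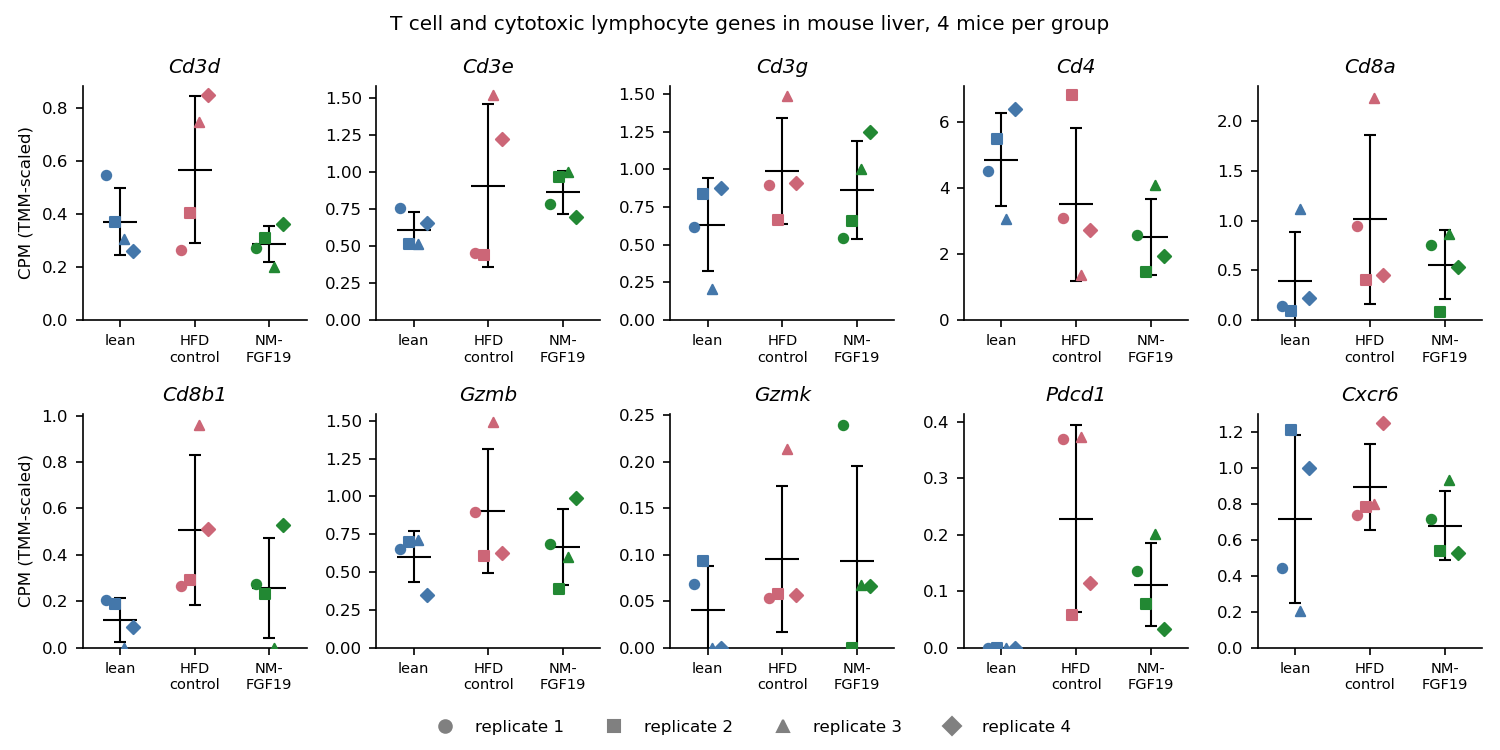
Level of each of the 10 genes in CPM (vertical axis, linear, from 0) in the 12 livers, by group. Each symbol is 1 mouse, the bar is the group mean and the whiskers are 1 SD (n = 4). The groups overlap for 8 of the genes in every comparison, whereas Pdcd1 is at 0 in all 4 lean livers and Cd8b1 is lower in every lean liver than in any HFD control liver.

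The CD3 genes came from 4 to 57 counts a library. Cd3d, the delta chain, stood at 0.548, 0.371, 0.306 and 0.262 CPM in lean livers, at 0.264, 0.405, 0.747 and 0.852 CPM in HFD control livers, and at 0.273, 0.308, 0.201 and 0.362 CPM in NM-FGF19 livers. HFD control 3 and 4 were above all lean values, and HFD control 1 and 2 lay among them. The log2 change of Cd3d was 0.59 ± 0.45 (SE, edgeR adjusted p = 0.467) with the diet. With NM-FGF19 it was −0.98 ± 0.46 against HFD control (unadjusted p = 0.0514, adjusted p = 0.562), the change of the 7 nearest to an unadjusted threshold in that comparison.

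Cd3e, the epsilon chain, read 0.753, 0.511, 0.51 and 0.655 CPM in lean livers and 0.449, 0.434, 1.52 and 1.22 CPM in HFD control livers. NM-FGF19 livers held 0.784, 0.962, 1 and 0.692 CPM. HFD control livers split into 1 low and 1 high pair, with no lean or NM-FGF19 liver as high as HFD control 3 or 4 nor as low as HFD control 1 or 2. The fitted changes were 0.57 ± 0.43 with the diet (adjusted p = 0.46) and −0.08 ± 0.42 with NM-FGF19 (adjusted p = 0.986). Cd3e overlaps Gm48720 and the antisense gene Gm48719 in the annotation, and reads of these could be shared.

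Cd3g, the gamma chain, was at 0.616, 0.836, 0.204 and 0.874 CPM in lean livers, 0.897, 0.666, 1.49 and 0.909 CPM in HFD control livers, and 0.545, 0.654, 1 and 1.25 CPM in NM-FGF19 livers. Its changes were 0.64 ± 0.45 (adjusted p = 0.415) and −0.20 ± 0.44 (adjusted p = 0.952). Summed over the 3 chains, CD3 came to 1.61 ± 0.404 CPM (SD, n = 4) in lean, 2.46 ± 1.09 in HFD control and 2.01 ± 0.319 in NM-FGF19 livers. The 3 groups overlapped, and the spread among HFD control livers (1.51 to 3.76 CPM) covered all lean values but lean 3 (1.02 CPM). The 95% intervals of the diet change ran from −0.39 to 1.57 for Cd3d, −0.37 to 1.5 for Cd3e and −0.33 to 1.61 for Cd3g on the log2 scale. These intervals hold both a log2 change of 1 and one of 0.

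Cd3d, Cd3e and Cd3g are neighbours in the genome. The starts of Cd3d and Cd3g lie 1355 bases apart on opposite strands of chromosome 9. The 250 bases before the start of these 3 genes, and of Pdcd1, the gene whose groups stood apart, are printed 5′ to 3′ on the gene's strand, from RefSeq (GRCm38.p6, an older build than that of the counts). Capitals mark matches on either strand to 3 short words that T cell transcription factors of the ETS, GATA and E protein families are known to bind. The ETS word searched was AGGAAG. For GATA factors the word was AGATAA, and for E proteins the E-box was written as CAGNTG.
Cd3d, chr9:44981536-44981785, plus strand: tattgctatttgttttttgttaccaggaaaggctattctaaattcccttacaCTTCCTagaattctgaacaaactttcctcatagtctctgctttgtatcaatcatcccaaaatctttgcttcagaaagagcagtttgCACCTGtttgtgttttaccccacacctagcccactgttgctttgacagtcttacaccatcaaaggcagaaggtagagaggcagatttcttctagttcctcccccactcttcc
Cd3g, chr9:44980432-44980681, minus strand: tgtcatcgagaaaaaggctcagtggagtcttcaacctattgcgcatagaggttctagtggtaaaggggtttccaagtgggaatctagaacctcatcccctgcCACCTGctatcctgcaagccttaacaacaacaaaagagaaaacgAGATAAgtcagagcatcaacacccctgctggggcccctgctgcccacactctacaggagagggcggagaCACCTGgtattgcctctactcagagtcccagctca
Cd3e, chr9:45009612-45009861, minus strand: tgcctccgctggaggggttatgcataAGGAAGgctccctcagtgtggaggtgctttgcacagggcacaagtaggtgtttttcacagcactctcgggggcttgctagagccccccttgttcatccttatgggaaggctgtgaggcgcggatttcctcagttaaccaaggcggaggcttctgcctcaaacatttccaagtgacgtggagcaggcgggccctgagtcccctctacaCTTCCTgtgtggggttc
Pdcd1, chr1:94052554-94052803, minus strand: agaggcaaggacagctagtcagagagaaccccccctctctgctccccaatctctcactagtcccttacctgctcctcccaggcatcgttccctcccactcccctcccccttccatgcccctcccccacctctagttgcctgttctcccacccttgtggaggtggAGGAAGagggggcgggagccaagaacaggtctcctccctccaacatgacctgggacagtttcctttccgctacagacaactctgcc

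The Cd3d window held 1 ETS and 1 E-box match, Cd3g held 1 GATA and 2 E-box matches, Cd3e held 2 ETS matches and Pdcd1 held 1. A promoter was at hand for 8 of the 10 genes. Among these, an ETS match was found in 3 (29.5% of 32851 mouse promoter windows), an E-box in 4 (44.8%), GATA in 1 (9.99%) and the RUNX core TGTGGT in 2, Gzmb and Cxcr6 (14.0%). The NFAT core GGAAAA was found in 0 of 8 windows (20.4% of all). Such short words occur often, so a match is a description of the letters and not a binding site.

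Cd4 was the most abundant of the 10 genes and ran the other way from most of them. Lean livers held 4.52, 5.48, 3.06 and 6.38 CPM, HFD control livers 3.09, 6.81, 1.36 and 2.73 CPM, and NM-FGF19 livers 2.56, 1.46, 4.08 and 1.94 CPM. HFD control 2 was the highest liver of all and HFD control 3 the lowest. The change was −0.48 ± 0.44 with the diet (adjusted p = 0.551), and −1.02 (adjusted p = 0.122) without HFD control 2. Between NM-FGF19 and lean mice it was −0.95 ± 0.44 (unadjusted p = 0.0519, adjusted p = 0.303), with 3 of 4 NM-FGF19 livers below every lean one. Per kilobase of exon, which allows genes to be compared, Cd4 stood at 1.2 ± 0.352 CPM per kb in lean livers, against 0.149 for Cd3e, 0.193 for Cd3g and 0.205 for Cd3d. Markers of resident Kupffer cells, the liver's own macrophages, are given beside Cd4. With the diet, 5 of 8 fell and 0 rose (3.29% of all tested genes were called lower), with a list median of −2.65. Between NM-FGF19 and HFD control mice Cd4 changed by −0.47. In the same comparison 0 of the 8 Kupffer cell markers were called, beside 0.432% of all tested genes, and their list median was 0.79. The summed level was 442 to 597 CPM in lean, 134 to 485 in HFD control and 101 to 392 in NM-FGF19 livers, and none was at 0. Most of the sum in HFD control 3 was Cd5l, which was not among the 5 that fell. It had 14710 counts there, against 3811 to 6442 in the other HFD control livers. The part of the Kupffer cell markers in the Cd4 values was not tested.

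Cd8a, the alpha chain, was at 0.137, 0.0929, 1.12 and 0.218 CPM in lean livers, 0.95, 0.405, 2.24 and 0.454 CPM in HFD control livers, and 0.75, 0.0769, 0.869 and 0.527 CPM in NM-FGF19 livers. All 4 HFD control livers exceeded lean 1, 2 and 4, whereas lean 3 exceeded every HFD control liver except HFD control 3. The diet change of 1.41 ± 0.83 (adjusted p = 0.326) became 2.75 (adjusted p = 0.075) without lean 3 and 0.67 (adjusted p = 0.711) without HFD control 3, and was 2.01 (adjusted p = 0.179) without both. It did not pass in any of these fits. With NM-FGF19, the change against HFD control was −0.85 ± 0.79 (adjusted p = 0.832).

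Cd8b1, the beta chain, which is more restricted to T cells than Cd8a, came from 0 to 36 counts a library. Lean livers held 0.205, 0.186, 0 and 0.0874 CPM, HFD control livers 0.264, 0.29, 0.96 and 0.511 CPM, and NM-FGF19 livers 0.273, 0.231, 0 and 0.527 CPM. Each HFD control liver was above each lean one, as for 8.39% of the tested genes in that direction. Cd8b1 was not among those tested, and the share among genes with as few counts was not counted. Without a filter on low counts the gene had an unadjusted p of 0.023 and an adjusted p of 0.229 with the diet, so the difference did not pass over all genes. The alpha and beta chains parted in single livers. Lean 3 had 22 counts of Cd8a and 0 of Cd8b1, and NM-FGF19 3 had 26 and 0. Of 9 dendritic cell markers, 2 rose with the diet (Itgax and Bst2), 0 fell and 7 did not pass, beside 5.04% of all tested genes called higher. The summed level was 122 to 156 CPM in lean, 213 to 312 in HFD control and 193 to 322 in NM-FGF19 livers, and none was at 0. Most of that sum was Bst2, at 130 ± 13.6 CPM in lean and 238 ± 40.7 in HFD control livers, a gene that interferon induces in many cell types. The part of these markers in the Cd8a values was not tested.

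Gzmb, the granzyme that triggers death in target cells, stood at 0.65, 0.696, 0.713 and 0.35 CPM in lean livers, at 0.897, 0.608, 1.49 and 0.625 CPM in HFD control livers, and at 0.682, 0.385, 0.602 and 0.988 CPM in NM-FGF19 livers. HFD control 1, HFD control 3 and NM-FGF19 4 lay above every lean liver, and the groups overlapped. The log2 change was 0.59 ± 0.42 (adjusted p = 0.42) with the diet and −0.44 ± 0.41 (adjusted p = 0.832) with NM-FGF19 against HFD control. Gzmk, a granzyme of memory-like T cells, had 0 to 8 counts a library. It was at 0 in lean 3, lean 4 and NM-FGF19 2, its highest level was 0.239 CPM in NM-FGF19 1, and no difference could be detected at this depth. The natural killer cell list, 10 genes of which 4 could be tested, had 0 called with the diet, beside 8.33% of all tested genes. Its summed level was 1.99 to 5.07 CPM in lean, 4.05 to 8.31 in HFD control and 3.5 to 6.19 in NM-FGF19 livers. Klra8 and Klra4 were at 0 in all lean livers, and Khdc1a was at 0 in all 12 livers. Granzyme counts from T cells and natural killer cells cannot be told apart here.

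Pdcd1 was the gene of the 10 whose groups stood farthest apart. It had 0 counts in all 4 lean livers, 14, 2, 14 and 4 in HFD control livers, and 4, 2, 6 and 1 in NM-FGF19 livers. On the CPM scale these were 0.369, 0.0579, 0.373 and 0.114 in HFD control and 0.136, 0.0769, 0.201 and 0.0329 in NM-FGF19 livers. A count of 0 allows 0.103 to 0.153 CPM in the lean libraries. HFD control 1, HFD control 3 and NM-FGF19 3 lay above all 4 of these limits, and the other 5 livers on the high-fat diet did not. With 3 counts set over the lean group as its limit, the 34 pooled counts of HFD control mice gave a scaled ratio of 7.28 to lean mice. The 13 pooled counts of NM-FGF19 mice gave 3.5. Neither ratio allows for the spread among mice, for counting error in the higher group or for counts that came in pairs. The NM-FGF19 and lean groups did not overlap, as for 5.46% of tested genes that were higher in NM-FGF19 mice. Pdcd1 was not among the tested genes, and the share among genes of such low counts was not counted.

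Pdcd1 was too low for the filter on counts. With no filter, edgeR gave an adjusted p of 0.0299 for HFD control against lean, 0.185 for NM-FGF19 against lean and 0.794 for NM-FGF19 against HFD control. The call was kept in 2 of the 8 fits that left out 1 liver, each of which also had fewer mice. The adjusted p was 0.0919 without HFD control 1, 0.0909 without HFD control 3, and 0.0558 to 0.0721 when any 1 of the 4 lean livers was left out, while it stayed past the threshold without HFD control 2 (0.0197) or 4 (0.0365). With every count halved and rounded up it was 0.0432.

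Cxcr6, which lies within Fyco1 on the opposite strand so that reads could be shared, stood at 0.445, 1.21, 0.204 and 1 CPM in lean livers, 0.739, 0.782, 0.8 and 1.25 CPM in HFD control livers, and 0.716, 0.539, 0.936 and 0.527 CPM in NM-FGF19 livers. The groups overlapped, and the lean values spread over the widest range. Its change was 0.32 ± 0.47 (adjusted p = 0.728) with the diet and −0.39 ± 0.46 (adjusted p = 0.888) with NM-FGF19.

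**Figure D2:**
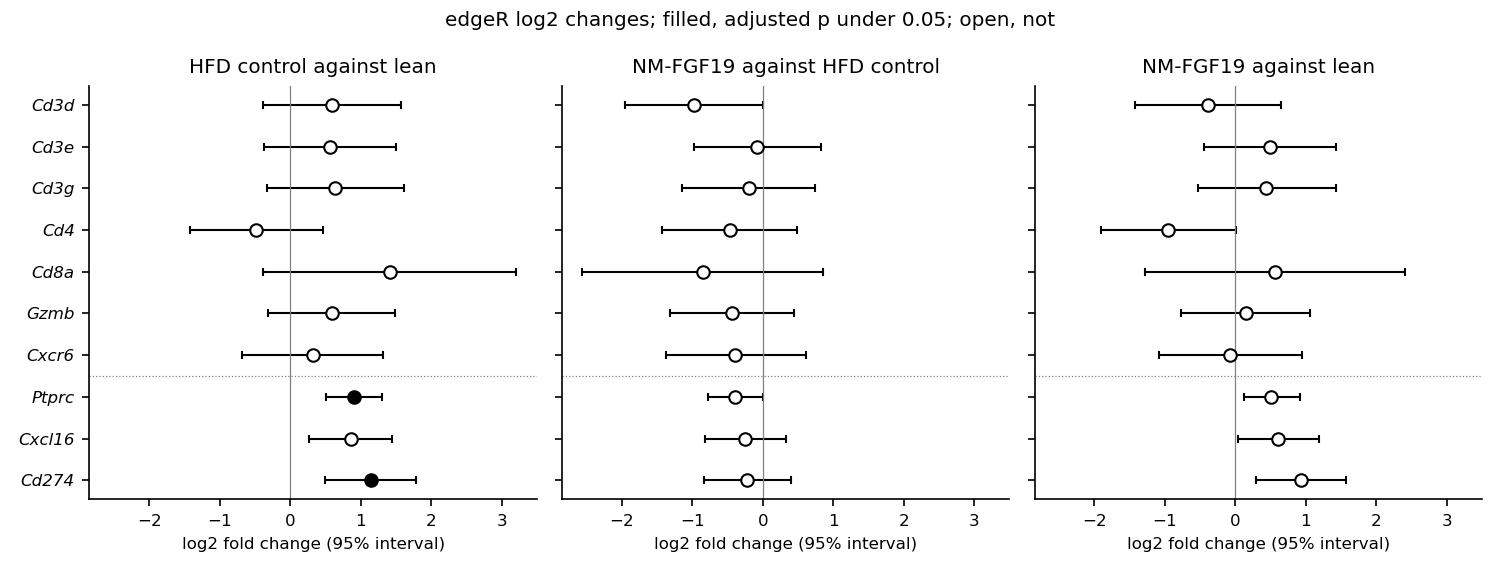
Log2 changes of the 7 tested genes and of the genes related to them in the 3 comparisons. Points are fitted values and whiskers are 95% intervals on a log2 axis where 0 means no change. The interval of every one of the 7 crosses 0 in each comparison. Those of Ptprc, Cxcl16 and Cd274 lie above 0 for HFD control against lean, where Cxcl16 did not pass (edgeR adjusted p = 0.067).

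Ligands and other partners of these receptors were measured beside them, among them Ptprc and Cxcl16 with more counts and narrower intervals. Ptprc, which encodes CD45 and marks all leukocytes, rose with the diet from 15.5 ± 1.45 to 28.9 ± 5.69 CPM (log2 change 0.90 ± 0.18, adjusted p = 0.013). Every HFD control liver (20.5 to 32.8 CPM) was above every lean one (14.2 to 17.5), as for 8.39% of tested genes in that direction. The call was kept when any 1 of these 8 livers was left out, and lost without lean 3 and HFD control 3 together (adjusted p = 0.0536). It stood at 22 ± 5.26 CPM in NM-FGF19 livers, a change of −0.39 ± 0.18 against HFD control that did not pass (adjusted p = 0.557). Cd274, which encodes the PD-1 ligand PD-L1, rose from 2.33, 3.34, 1.68 and 2.27 CPM in lean livers to 7.65, 3.19, 6.32 and 4.09 CPM in HFD control livers (1.14 ± 0.30, adjusted p = 0.0328). HFD control 2 lay below lean 2, so the groups overlapped, and leaving out HFD control 1 or 3, or lean 1, 3 or 4, ended the call (adjusted p up to 0.0964). NM-FGF19 livers held 3.58, 5.42, 4.11 and 5.21 CPM of Cd274, a change of −0.22 ± 0.29 against HFD control (adjusted p = 0.901). An antisense gene overlaps Cd274 in the annotation.

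Cxcl16, the CXCR6 ligand, was at 10.2, 10.6, 8.36 and 11.9 CPM in lean and 17.2, 15.5, 29.4 and 12.5 CPM in HFD control livers. The groups did not overlap, as for 8.39% of tested genes in that direction, but the change of 0.86 ± 0.27 did not pass (adjusted p = 0.067). It passed with DESeq2 (adjusted p = 0.0241), with library totals alone (0.0204) and, among the fits that left out 1 liver, without HFD control 4 (0.048). Tnfsf4, the OX40 ligand named in the HFD control columns, had 0 counts in all lean and HFD control livers and 2 counts in NM-FGF19 4. A count of 0 allows up to 0.0869 CPM in the HFD control libraries. Whether the injected Control-mRNA carried an OX40 ligand sequence was not tested. Its receptor Tnfrsf4 stood at 0.598 ± 0.112 CPM in lean, 0.359 ± 0.213 in HFD control and 0.469 ± 0.326 in NM-FGF19 livers, with a diet change of −0.73 ± 0.57 (adjusted p = 0.475).

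**Figure D3:**
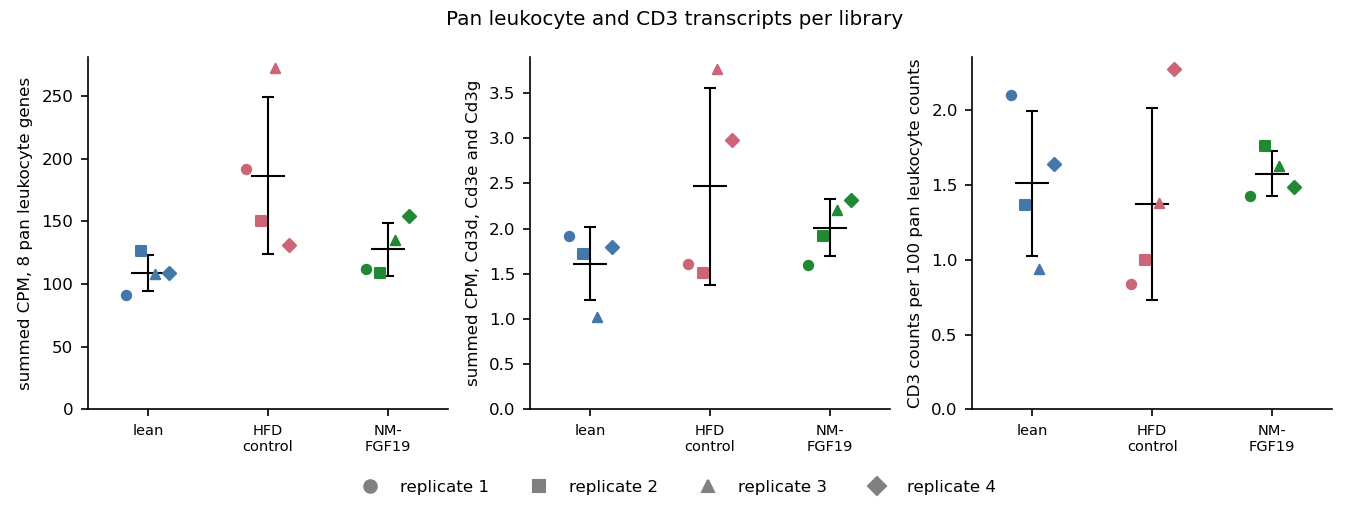
Summed CPM of 8 pan leukocyte genes (left panel), summed CPM of Cd3d, Cd3e and Cd3g (middle panel) and CD3 counts per 100 pan leukocyte counts (right panel) in the 12 livers, on linear axes from 0. Each symbol is 1 mouse, with the group mean and 1 SD (n = 4). All HFD control livers are above every lean liver in the left panel (131 CPM and more), while the groups overlap in the other panels.

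CD3 was set beside leukocyte RNA as a whole. The list of 8 pan leukocyte genes had 3 of 7 tested members higher with the diet (5.04% of all tested genes were called higher) and summed to 109 ± 14.1 CPM in lean, 186 ± 62.6 in HFD control and 128 ± 21.1 in NM-FGF19 livers. For every 100 pan leukocyte counts there were 1.51 ± 0.486 CD3 counts in lean, 1.38 ± 0.644 in HFD control and 1.58 ± 0.148 in NM-FGF19 livers. These ratios overlapped between all groups. No test was made of them, since both terms vary.

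The other genes were also set against CD3 in the same library. Per 100 CD3 counts, Cd4 came to 236 to 356 counts in lean, 36.2 to 452 in HFD control and 76 to 185 in NM-FGF19 livers, so that each NM-FGF19 liver lay below each lean one. Per 100 pan leukocyte counts, NM-FGF19 3 (3.02 counts of Cd4) lay above lean 3 (2.82), and that separation was lost. Cd8b1 came to 0 to 10.8 counts in lean, 16.4 to 25.5 in HFD control and 0 to 22.9 in NM-FGF19 livers, and each HFD control liver lay above each lean one. Per 100 pan leukocyte counts this too was lost, with 0.138 counts of Cd8b1 in HFD control 1 against 0.225 in lean 1 and 0.148 in lean 2. How many genes of the whole table separate on such ratios was not tested. Pdcd1 gave 3.81 to 23 counts in HFD control and 1.43 to 9.09 in NM-FGF19 livers, against 0 in lean livers. Gzmb (means of 41, 39.2 and 33.2 counts) and Cxcr6 (42.4, 40.2 and 34.5) overlapped among all groups. Cd8a spanned 5.41 to 110 counts in lean livers alone, with lean 3 at the top. The ratios rest on 20 to 141 CD3 counts a library and are given without a test.

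**Figure D4:**
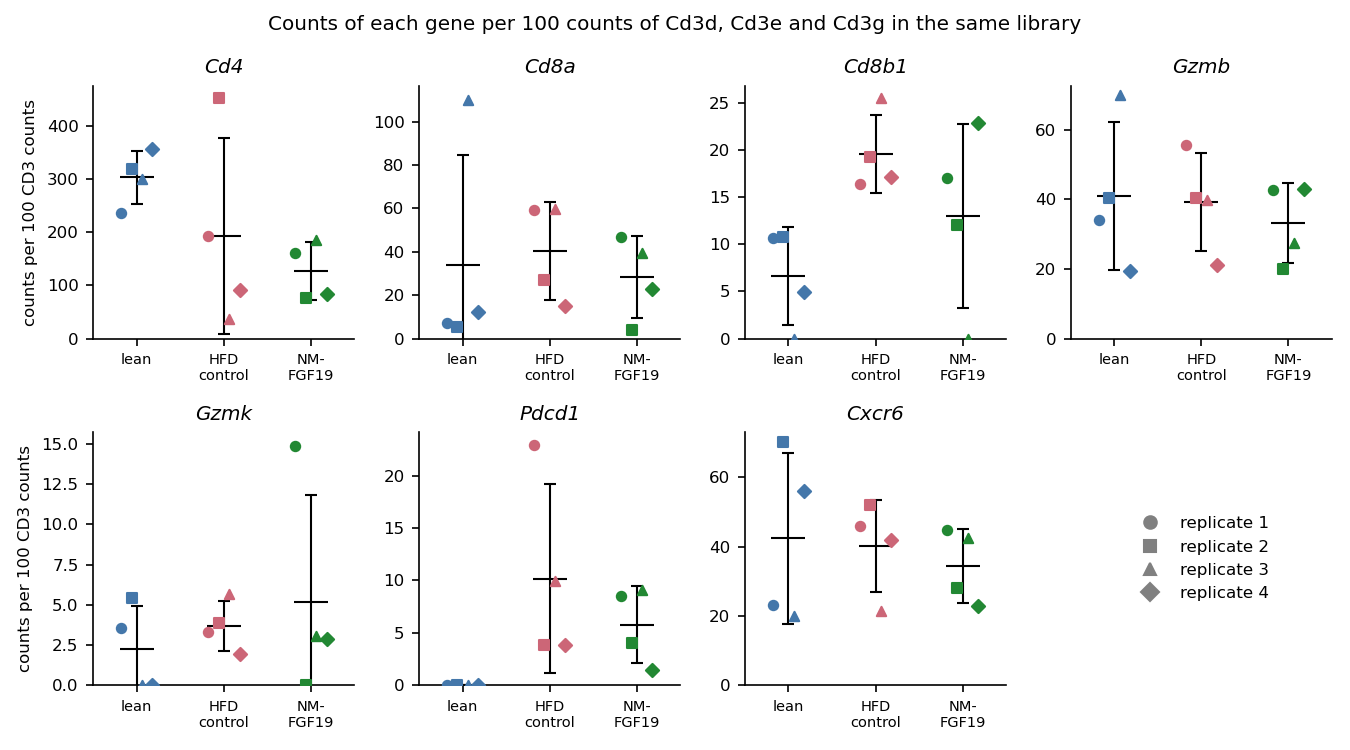
Counts of each gene per 100 summed counts of Cd3d, Cd3e and Cd3g in the same library (vertical axis, linear, from 0), by group. Each symbol is 1 mouse, with the mean and 1 SD (n = 4). Cd8b1 is higher in every HFD control liver than in any lean liver, and Cd4 is lower in every NM-FGF19 liver than in any lean liver, but neither separation holds per 100 pan leukocyte counts.

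Lists of other T cell genes, and of ligands and antigen presentation partners, were counted in the same way. In the list of the T cell receptor and its proximal signalling, 19 of 20 genes were tested, 1 rose and 1 fell with the diet (5.04% and 3.29% of all genes), and the median change was 0.50. Thy1, a T cell surface protein that fibroblasts also make, rose from 1.16 ± 0.247 to 2.59 ± 0.923 CPM (1.16 ± 0.32, adjusted p = 0.0403), but the call was kept only without HFD control 2 when each of the 8 livers was left out in turn. Trat1, an adapter of the receptor, fell (log2 change −7.04 ± 1.61, adjusted p = 0.0257). Its level in lean livers lay mostly in lean 3, with 1710 counts against 30 to 114 in the other lean livers and 0 to 16 in all livers on the high-fat diet. The log2 change was −4.23 without lean 3 (adjusted p = 0.04), and leaving out HFD control 1, 3 or 4 ended the call (highest adjusted p 0.0851). Trat1 overlaps the processed pseudogene Gm8670 on the same strand in the annotation, and reads of these could be shared.

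Of the cytotoxic effectors and their regulators, 11 of 18 were tested. With the diet 1 rose and 0 fell (5.04% and 3.29% of all tested genes). All 11 changes were positive, with a median of 0.84. The gene that rose was Runx3, a transcription factor of CD8 T cells and natural killer cells. It had 12, 6, 8 and 10 counts in lean, 106, 48, 91 and 41 in HFD control and 24, 40, 20 and 64 in NM-FGF19 livers, or 0.383 ± 0.0712, 1.94 ± 0.791 and 1.28 ± 0.668 CPM. The diet change was 2.33 ± 0.45 (adjusted p = 0.011) and stayed past the threshold in all 18 alternatives run for it (highest adjusted p = 0.0461). The cells that the Runx3 transcripts came from were not tested. Ifng and Gzmc, an inflammatory cytokine and a granzyme, were at 0 in all lean livers.

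In the exhaustion and tissue residency list, 14 of 16 were tested, with a median of 0.41. Of these 2 rose and 0 fell (5.04% and 3.29% of all tested genes). Tox, a transcription factor of exhausted T cells, rose from 2.07 ± 0.536 to 6.96 ± 3.85 CPM (1.74 ± 0.41, adjusted p = 0.0232). The call ended when HFD control 3 or 4, or lean 2 or 4, was left out (highest adjusted p 0.0672). Summed CD3 came to 1.61 ± 0.404 CPM in lean and 2.46 ± 1.09 in HFD control livers. Which cells the Tox transcripts came from was not tested. Havcr2, the checkpoint receptor TIM-3, which macrophages and dendritic cells also carry, rose from 1.25 ± 0.52 to 3.41 ± 0.936 CPM (1.45 ± 0.34, adjusted p = 0.0223), a call that ended when HFD control 3, or lean 1, 2 or 4, was left out (highest adjusted p 0.0675).

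Of the T cell transcription factors and naive T cell genes, 10 of 12 were tested, with a median of 0.27. Of these 1 rose and 0 fell (5.04% and 3.29% of all tested genes). That gene was Ets1, a transcription factor that endothelial cells also make, at 30.3 ± 1.63 CPM in lean and 42.1 ± 1.56 in HFD control livers (0.47 ± 0.10, adjusted p = 0.0145). Of the helper and regulatory genes, 8 of 13 were tested, with a median of 0.23. Here 2 rose and 0 fell (5.04% and 3.29% of all tested genes). Ikzf2, the factor Helios of regulatory T cells, rose from 0.134 ± 0.0973 to 0.786 ± 0.182 CPM (2.55 ± 0.56, adjusted p = 0.0174), with an adjusted p of 0.0767 without lean 3 and HFD control 3 together. Maf, a factor of helper T cells and of macrophages, rose from 34.7 ± 6.58 to 52.8 ± 4.27 CPM (0.61 ± 0.14, adjusted p = 0.0236), a call that ended when lean 4, HFD control 3 or HFD control 4 was left out (highest adjusted p 0.0634).

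The ligands and antigen presentation partners held the most calls, with 15 of 18 tested, 5 higher and 0 lower (5.04% and 3.29% of all tested genes). Their median was 0.78. Besides Cd274, the MHC class II chains that CD4 binds rose, H2-Aa from 26.5 ± 7.08 to 92.1 ± 58.4 CPM (1.80 ± 0.37, adjusted p = 0.0155) and H2-Ab1 from 26.1 ± 5.28 to 89 ± 60.1 CPM (1.77 ± 0.38, adjusted p = 0.0179). Both calls were kept in each of the 8 fits that left out 1 lean or HFD control liver. The remaining genes called were Cxcl9 and Cxcl10, ligands of CXCR3, a chemokine receptor of T cells. Markers of several other cell types also moved with the diet beside these lists, as given above for pan leukocyte, dendritic and Kupffer cell genes. Of 7 stellate cell and fibroblast genes 3 rose, and of 7 endothelial genes 2 rose, beside 5.04% of all tested genes. Summed stellate markers ran from 187 to 243 CPM in lean, 409 to 1040 in HFD control and 295 to 874 in NM-FGF19 livers, and their part in the list counts was not tested.

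With NM-FGF19 against HFD control, 0 of the 77 tested genes of these 6 lists were called, beside 0.432% of all tested genes. At an unadjusted p under 0.05, 1 gene of the 6 lists was higher and 6 were lower. The share of all genes at that cut-off was not counted, so these numbers have no background beside them. The medians ran from −0.45 for cytotoxic effectors to 0.02 for helper and regulatory genes. Against lean mice, 3 of the 77 tested genes of the 6 lists were called in NM-FGF19 mice, all higher, beside 1.01% of all tested genes called higher. They were Ets1 (0.56, adjusted p = 0.0196), the integrin gene Itga1 of resident lymphocytes and endothelium (0.60, adjusted p = 0.0224) and Ikzf2 (2.82, adjusted p = 0.0275). Ets1 lost its call without lean 4 or NM-FGF19 1 or 4 (adjusted p up to 0.0626). Ikzf2 lost its call without lean 1, 3 or 4 or NM-FGF19 1 or 4 (up to 0.0815), and Itga1 without lean 2, 3 or 4 or NM-FGF19 1 or 4 (up to 0.0754).

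**Figure D5:**
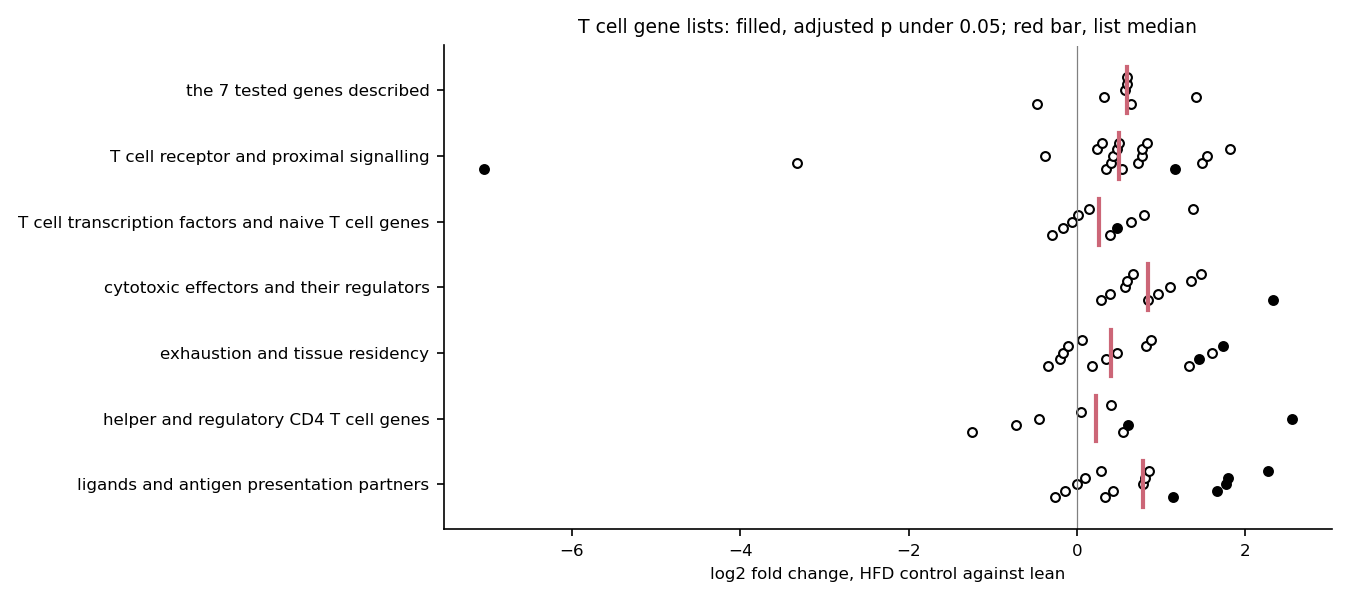
Log2 changes of single genes (points) in the lists of T cell genes and of ligands and antigen presentation partners, for HFD control against lean. On the log2 axis 0 means no change, and the median of each list is marked. Medians lie between 0.23 and 0.84, beside −0.02 for all genes. The filled points are the 12 list genes called higher and the 1 called lower (Trat1), beside 5.04% and 3.29% of all tested genes. Of those called higher, 5 are ligands and antigen presentation partners.

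The measured levels of the 7 tested genes did not rise and fall as 1 block. How far counting error at these low counts lowered the correlations below was not tested. Over the 12 livers, Pearson's r of each gene with the mean of the other 6 was 0.497 for Gzmb, 0.496 for Cd3g, about 0.3 for Cd3d (0.304), Cxcr6 (0.301) and Cd3e (0.299), 0.111 for Cd8a and −0.431 for Cd4. The genes most like the mean log2 level of the 7 over the 12 livers were Stk10 (r = 0.913), Cd44 (0.897) and Fgl2 (0.896). They head a ranking of all tested genes with a symbol, with the 7 and predicted genes left out. With group means removed the r values of Stk10, Cd44 and Fgl2 were 0.862, 0.824 and 0.839. Next over the 12 livers came Apobr (r = 0.891), Epsti1 (0.882), Blvra (0.876), Arhgap19 (0.874) and Armc7 (0.874). None of these 8 genes was in the T cell lists, and which cells they came from was not tested. The points share libraries of different depth and the 3 groups, so these are descriptions of likeness across livers, and no p is given.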

How the data were processed

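RNA-seq counts were measured in the livers of 12 mice, 4 per group. The authors deposited raw read counts per gene, for which the submitters' processing notes name Trimmomatic, STAR, featureCounts and the build mm39. Per the labels' protocols, a stranded mRNA kit was used on 100 ng of total RNA and read pairs were 101 nt long. Not given in the sources used here are tool versions, the annotation, the strand mode and whether mates were counted apart. Of the Ensembl IDs, 52083 had a symbol, and the other 3276 held 0.515% of counts. All 12 columns matched the labels by name, with 0 left over.

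The 15274 genes passing filterByExpr (minimum count 10) entered edgeR 4.0.16 under R 4.3.3 (quasi-likelihood F test, robust, TMM, 2-sided, Benjamini-Hochberg, threshold 0.05), in 1 fit of all 12 samples with group as the only term. The script was tested on simulated data. DESeq2 1.42.0 and limma 3.58.1 voom, other scalings and filters, and fits without each sample were alternatives. Likeness used log2 CPM with a prior count of 2. Exon lengths and overlapping genes came from GENCODE M21 (GRCm38), whose coordinates are not mixed with those of the counts. Named genes are the 10, the fixed partners Ptprc, Tnfsf4, Tnfrsf4, Cxcl16 and Cd274, per list the 2 calls of smallest adjusted p in the direction with more calls and 1 in the opposite one, and the 8 most alike; any other gene was named after its values were seen. The 10 genes and the lists were chosen with earlier results of these data known. Mice sampled before treatment were not analysed here.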

Additional observations from a re-analysis of the deposited data

Results flagged for a closer look

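In 141 groups of 4 livers, the lowest or highest liver was compared with the others on the log2 CPM scale, and 12 stood apart by Dixon's criterion, whereas chance marks about 1 in 20 groups. Among the 10 genes these were Gzmb in lean 4 (0.35 CPM, low), Gzmk in HFD control 3 (0.213 CPM, high) and Cxcr6 in HFD control 4 (1.25 CPM, high). Each of these rests on few counts. Among the partners, Ptprc was low in HFD control 4 (20.5 CPM) and Tnfsf4 was high in NM-FGF19 4 (0.0659 CPM, from 2 counts). In the T cell lists, Ets1 was low in HFD control 3 (39.7 CPM), Runx3 low in lean 2 (0.279 CPM) and Maf high in HFD control 4 (59.2 CPM). Of the genes most like the mean of the 7 tested genes, Stk10 (17.7 CPM) and Arhgap19 (18 CPM) were high in HFD control 3. Of the markers of other cell types, Timd4 of Kupffer cells was high in lean 2 (17.1 CPM) and Col1a1 of stellate cells and fibroblasts was low in lean 1 (4.24 CPM).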

How the results depend on the processing

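Of 358 values for the genes described, under alternatives, 340 kept their direction and their side of the threshold, and 18 changed sign between small values. The number of the genes called stayed at 0 in every alternative except 1, HFD control against lean with no filter on low counts, where it was 1 (Pdcd1). Filtering at 1 CPM in 4 libraries left 1 of the genes, Cd4. For NM-FGF19 against HFD control, the log2 change of Cd3e was 0.12 with voom, 0.29 without lean 3 and HFD control 3 together, and −0.32 to 0.29 with 1 liver left out. That of Cd3g was 0.06 without both livers and −0.43 to 0.07 with 1 left out, Cd4 ranged from −0.82 to 0.07, Cd274 from −0.40 to 0.00, Tnfrsf4 from −0.07 to 0.78 and Cxcl16 from −0.51 to 0.06 (0.05 without both). For NM-FGF19 against lean, Gzmb ranged from −0.11 to 0.34, and Cxcr6 was 0.17 with voom, 0.09 with library totals alone and −0.35 to 0.30 with 1 liver left out. Replicate numbers did not pair the samples (correlations of same-numbered samples −0.363 to 0.071, and 0 of 12 correlated best with their own number). With the replicate as a block, 0 of the 7 genes were called, Cd3e became 0.04 and Cxcr6 0.06, and genes called over the whole table numbered 593, 18 and 40. For HFD control against lean, the block left H2-Aa (adjusted p 0.0608), H2-Ab1 (0.0629), Cd274 (0.0865), Thy1 (0.0978), Trat1 (0.0668), Tox (0.0745), Ikzf2 (0.0556), Maf (0.0634) and, with no filter, Pdcd1 (0.075) above 0.05. For NM-FGF19 against lean it left Ets1 (0.0819), Ikzf2 (0.11) and Itga1 (0.0942) above 0.05. With voom the diet calls of Cd274, Thy1, Trat1 and Tox and the NM-FGF19 call of Ikzf2 were also lost. The whole-table counts were 1272, 66 and 228 without the block, 2220, 289 and 969 with DESeq2, and 480 to 2611, 18 to 289 and 40 to 969 over 18 alternatives. Library totals alone shifted the median change of all genes to 0.29, −0.13 and 0.17. Outside Cd4 none of the 10 genes exceeded 84 counts in a library, and depth limits what can be seen.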

Other observations

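Several values fell outside the comparisons, in genes chosen after their values were seen. Cd28, the co-stimulatory receptor of T cells, had 352 counts in lean 3 and 6 to 12 in the other lean livers, in the same library where Trat1 reached 1710 counts, while Cd3d, Cd3e and Cd3g held 6, 10 and 4 counts there. Trbc2, a constant segment of the T cell receptor beta chain, stood at 0.302 ± 0.208 CPM (SD, n = 4) in lean, 0.871 ± 0.427 in HFD control and 0.617 ± 0.181 in NM-FGF19 livers. Each HFD control liver was above each lean one, as for 8.39% of tested genes in that direction. The log2 change of 1.48 ± 0.61 did not pass (edgeR adjusted p = 0.153). For Trac and Trbc1, other constant segments of the receptor, these groups overlapped. Lean livers reached 0.961 CPM of Trac and 0.65 of Trbc1, and HFD control livers went down to 0.739 and 0.348 CPM. Gzma, a granzyme of natural killer cells and T cells, did not overlap between lean and HFD control livers, as with Trbc2. It stood at 0.251 ± 0.043 CPM in lean and 0.639 ± 0.318 in HFD control livers (1.35 ± 0.51, adjusted p = 0.121). Foxp3, the factor of regulatory T cells, had at most 8 counts in any library.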
